A study of Danio rerio with 2 samples.

Results

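Cadherins are calcium-dependent adhesion proteins of the cell surface. The members described here are the 31 genes, on 45 spots of 43839 (36305 distinct names), whose name on the array begins with cdh and a digit, pcdh, fat1 to fat4, or celsr, with cdh5 left out. They fall into 10 cadherins on 16 spots, 20 protocadherins on 27 spots and 1 gene of the fat and celsr kind, celsr2, on 2 spots. The rule used names and no measured value, but it was set with earlier results of these data known.

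Zebrafish (Danio rerio) eggs were injected with 10.3 ng per embryo of a morpholino, an antisense oligonucleotide. One, MO2-ers2a, blocks translation of the mRNA of estrogen receptor beta2 (ers2a), and MO-control is the control morpholino, so embryos of both kinds were injected. Whole embryos were fixed at 8 hours post fertilization (hpf), during gastrulation, or at 48 hpf, around hatching, and the study asked how the knockdown changes transcript contents. Each age has 1 Agilent 2-colour array with MO2-ers2a RNA in Cy5 and MO-control RNA in Cy3. No array was replicated and no dyes were swapped, so no test between conditions was possible, a dye bias of a probe cannot be told apart from a difference, and every value below rests on 1 hybridisation. How many embryos were pooled is not given in the sources used here. A morpholino lowers protein rather than necessarily its mRNA, may have effects beyond its target, and no rescue sample is analysed here.

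Classical cadherins bind the same kind of cadherin on the neighbouring cell and hold actin through catenins on the inner side of the membrane. In the zebrafish gastrula E-cadherin (cdh1) is needed for the spreading of the cell sheets over the yolk, and N-cadherin (cdh2) for the forming neural tube. Protocadherins lack the catenin-binding tail. The clustered kind, made by joining one of many variable exons to shared constant exons, gives neurons a surface identity, and fat and celsr proteins are very large cadherins that act in planar polarity.

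The targeted transcript gave no check of the labels: its 2 spots, named esr2a on the array, passed in both channels on neither array, with Cy5 signals minus background from 14.5 to 29 and Cy3 signals from 34.5 to 50. Values are log2 ratios of MO2-ers2a over MO-control after background correction and dye normalization within the array, and each gene is given by the median of the spots measured for it. A spot is measured when both signals minus local background exceed limits set from negative control spots. In Cy5 these limits were 24.4 at 8 hpf and 27.7 at 48 hpf, and in Cy3 59.9 and 70.1. Of all names on the array, 15492 (42.7%) were measured at 8 hpf and 16775 (46.2%) at 48 hpf, with median log2 ratios of -0.02 at both ages. Spots that carry 1 name differed with a pooled SD of 0.31 at 8 hpf and 0.23 at 48 hpf, called the spread between spots below. It is a spread of single spots within an array, and these may be repeats or different probes. Cy5 was the brighter channel before dye normalization. After background correction, the median raw log2 ratio was 0.89 at 8 hpf and 0.59 at 48 hpf. The unnormalized signals given below are therefore not read against 0, and these medians are only a rough guide to them. At 8 hpf the dye difference taken out by normalization was 0.61 for the first celsr2 spot and 1.22 for the first cdh2 spot. A gene is called at 2-fold, a rule of size and not a test. The stage of the arrays was checked on 10 gastrula genes, of which 10 were measured at 8 hpf and 6 at 48 hpf, and on 13 skeletal muscle genes, of which 10 were measured at 8 hpf and 13 at 48 hpf. Summed over the measured genes, the gastrula list gave 81598 in Cy3 at 8 hpf and 4925 at 48 hpf, and the muscle list 10170 and 245046.

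At 8 hpf, 10 of the 31 genes were measured and none was 2-fold higher or lower in MO2-ers2a embryos. Over all names measured, 2.32% were 2-fold higher and 2.27% were 2-fold lower, so a count of 0 of 10 is near this background. At 1.5-fold, pcdh10b was higher and pcdh16l lower, against 7.45% and 8.03% of all names. The members had a median of 0.15 and ran from -0.60 to 0.59, with all 10 inside the middle 95% of all names (-0.96 to 0.98). At 48 hpf, 18 were measured, with a median of -0.29 and a range from -1.01 to 0.57. A single gene was 2-fold lower, pcdh1gb9, against 1.28% of all names, and none was 2-fold higher, against 1.29%. In simulated arrays most spots made with a 2-fold change came out under 2-fold, so a value under the line does not by itself show a change smaller than 2-fold. That change sat on the line itself, so noise alone puts many such spots under it. Their median recovered log2 ratios were -0.78 and 0.88 at 8 hpf and -0.73 and 0.86 at 48 hpf. Of spots made 4-fold different and still measured, 78.7% to 100% came out past 2-fold. Some lowered spots fell under the detection limits and are left out of these shares. Of those made 4-fold lower, 47 were still measured at 8 hpf and 40 at 48 hpf, and of those made 4-fold higher, 50 at each age. The changed spots were drawn at random from all measured spots, with noise added. Bright and dim spots were not looked at apart, so how far this holds for bright members is not known. The scaling moves these shares of all names, and the scalings named below also leave out the loess step, so they are no plain shift of the values. Centring each array on all spots gave 16.3% higher and 0.633% lower at 8 hpf and 7.54% and 0.513% at 48 hpf, and scaling on the spike-in control RNAs gave 1.12% and 14.0%, and 1.31% and 3.85%. The median of all names was 0.54 and 0.37 in the first and -0.42 and -0.11 in the second, the level against which members are read there. At this age 16 of the 18 members lay below 0, where 52.2% of all names did; with the array centred on all spots 7 of 18 did, and 20.2% of all names.

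**Figure D1:**
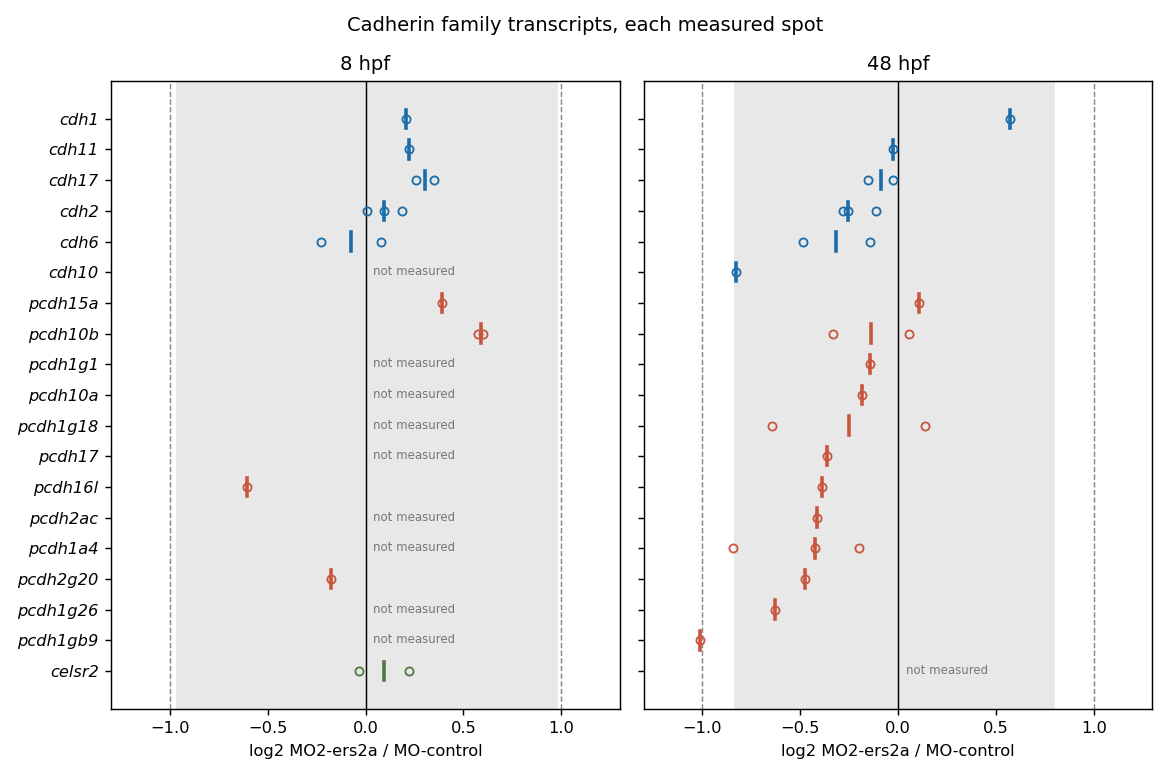
Log2 ratio of MO2-ers2a over MO-control (horizontal axis) for the 19 members measured on either array, with 8 hpf at left and 48 hpf at right. Open circles are measured spots, vertical bars the median of a gene's spots, grey bands the middle 95% of all names, and dashed lines 2-fold; blue marks cadherins, red protocadherins and green celsr2. At 48 hpf 16 of 18 genes lie left of 0 and pcdh1gb9 reaches the 2-fold line.

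Among the cadherins, cdh1 was higher in MO2-ers2a embryos by less than 2-fold at both ages. Its spot gave a Cy5 signal of 16839 against 6630.5 in Cy3 at 8 hpf (log2 ratio 0.20, within the spread between spots), and 4385 against 1710 at 48 hpf (0.57, or 1.49-fold). The value at 48 hpf is the highest of any member at that age and 1 of the 2 above 0. The cdh1 ratio kept its sign under every processing alternative run, from 0.06 to 1.02 at 8 hpf and from 0.57 to 1.15 at 48 hpf. Markers of the enveloping layer and epidermis, tissues that hold cdh1, had a median of 0.17 at both ages. Of these, 5 of 9 stood above 0 at each age, and their summed Cy5 and Cy3 signals were 385507 and 191856 at 8 hpf and 316328 and 157909 at 48 hpf. Their part in the cdh1 value was not tested. In whole embryos, fewer cells of a type and less RNA per cell cannot be told apart, here and for every gene below.

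The 3 cdh2 spots lay close together on each array, on opposite sides of 0 at the 2 ages. At 8 hpf the first spot gave 50409 in Cy5 and 20279 in Cy3 (log2 ratio 0.09), the second 796 and 360 (0.19), and the third 36902 and 15992 (0.01). At 48 hpf they gave 16526 and 10851 (-0.26), 380 and 281 (-0.11), and 13110 and 8827 (-0.28). The gene's value was 0.09 at 8 hpf, within the spread between spots, and -0.26 at 48 hpf, or 1.19-fold lower. Without loess it stood at -0.02 with centring on measured spots and at 0.37 with centring on all spots, where the medians of all names were -0.02 and 0.37, so relative to other names cdh2 was then no longer lower.

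Type II cadherins share the catenin-binding tail but differ in their adhesive domain. cdh6, which in zebrafish is expressed in the forming kidney and in neural tissue, was bright at 8 hpf with Cy5 and Cy3 signals of 23425 and 12183 on 1 spot and 28510 and 11899 on the other. The log2 ratios were -0.23 and 0.08, so the spots disagreed in sign and the gene stood at -0.07. At 48 hpf its spots gave 5305 and 3380 (-0.15) and 4216 and 3424 (-0.49), with a gene value of -0.32, which was 0.28 with centring on all spots, below the 0.37 of all names there. cdh11, a cadherin of mesenchyme, gave 1108 against 480 at 8 hpf (0.22) and 2893.5 against 1733 at 48 hpf (-0.02); neither value exceeds the spread between spots.

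The lowest cadherin at 48 hpf was cdh10, current symbol cdh10a, a type II cadherin of the brain. Its spot gave 245 in Cy5 and 331 in Cy3, a log2 ratio of -0.83 (1.78-fold lower), and the authors' deposited log ratio, turned from log10 to log2 here and below, was -1.21. On this array, where Cy5 is the brighter channel, a Cy3 signal above the Cy5 signal sets the spot apart from the other measured cadherins. At 8 hpf cdh10 passed in Cy5 alone, with 25 in each channel, and no ratio is given. cdh17, which marks the pronephric duct in zebrafish and is not a type I or II cadherin, gave 204.5 and 102 on the first spot and 194 and 91 on the second at 8 hpf. These are ratios of 0.26 and 0.35. At 48 hpf it gave 1471 and 908, and 1157.5 and 792, with ratios of -0.03 and -0.15. Both spots lay above 0 at 8 hpf and below 0 at 48 hpf, each gene value (0.30 and -0.09) being within the spread between spots. The gene stood at 0.42 at 48 hpf with centring on all spots, beside 0.37 for all names, and at -0.28 at 8 hpf under spike-in scaling, beside -0.42.

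As a class, the 5 measured cadherins had a median of 0.20 at 8 hpf (1.15-fold higher), 4 of them above 0, and the 6 measured at 48 hpf a median of -0.17, 5 of them below 0. The first was -0.09 under spike-in scaling, above the -0.42 of all names. The second was 0.40 with centring on all spots, beside 0.37 for all names, and 0.01 with centring on measured spots, beside -0.02. cdh4 (R-cadherin), cdh7 (now cdh7a), cdh18 (now cdh18a) and cdh23, the hair-cell cadherin of the tip link and no type I or II cadherin, were measured on neither array. Of these, cdh7 passed in Cy5 alone at both ages and cdh18 at 8 hpf. cdh7 was brightest at 48 hpf, with 79 in Cy5 and 70 in Cy3, just under the Cy3 limit.

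**Figure D2:**
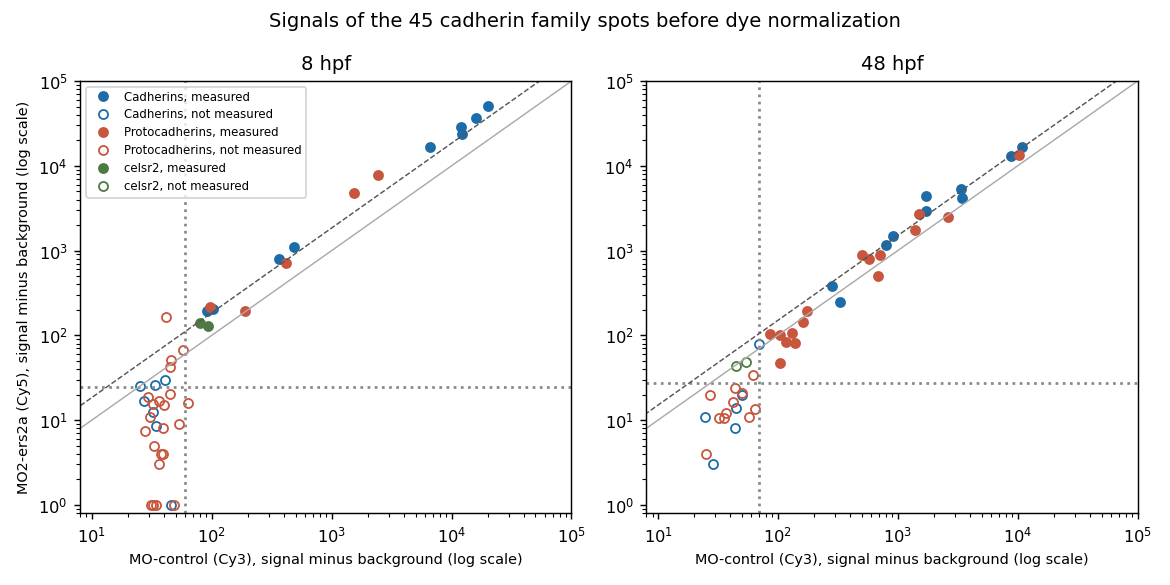
Signal minus local background of all 45 spots in MO-control (Cy3, horizontal) and MO2-ers2a (Cy5, vertical) embryos, on log axes, before dye normalization; signals under 1 are drawn at 1. Dotted lines are the detection limits, the solid line is equality and filled points are measured. The dashed line is the median raw ratio of all measured spots, taken after a background correction that adds an offset, and is a rough guide. At 48 hpf several measured protocadherin spots lie on or below the equality line, pcdh1gb9 among them. Most measured cadherin spots lie near the dashed line, with cdh10 below equality, and several unmeasured cadherin spots are below equality too. The dashed line is a single value, whereas the dye difference taken out by normalization varied between spots. It was 0.21 for the dim pcdh1g26 spot and 0.86 for the brightest cdh2 spot.

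The clustered protocadherins, 11 genes named pcdh1 or pcdh2 with a letter a or g, had 1 gene measured at 8 hpf and 7 at 48 hpf, where all 7 lay below 0. They were singled out after the values were seen, so the following is a description. The 7 pcdh1 members lie on 1 chromosome in the RefSeq gene table (assembly GRCz12tu), and so do the 2 of 4 pcdh2 members found in it. Members of a cluster share constant exons and similar variable exons, so a probe may read several of them, and values of single members are uncertain for that reason.

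At 48 hpf pcdh1gb9 gave 506 in Cy5 and 686 in Cy3, a log2 ratio of -1.01 (2.02-fold lower). The authors' deposited value was -1.15, and over the alternatives it ran from -1.15 to -0.56. It rests on 1 spot. pcdh1g26 gave 47 in Cy5 and a Cy3 signal at percentile 59.4 of the array's spots (-0.63), with both signals close to the detection limits. pcdh1a4 had 3 spots, at 2457 and 2608 (-0.84), 194.5 and 173.5 (-0.20), and 83.5 and 117.5 (-0.42). All 3 stood below 0 and the brightest was the lowest. The gene's median was -0.42, and its range over the alternatives, -0.84 to -0.27, did not reach 0.

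From the other cluster, pcdh2g20 was the brightest clustered member at 48 hpf, with 13322 in Cy5 and 10236 in Cy3 (-0.47, or 1.39-fold lower). It was also the only one measured at 8 hpf, with 705 and 418.5 (-0.18). Without loess, pcdh2g20 at 48 hpf stood at -0.21 with centring on measured spots and at 0.18 with centring on all spots. The medians of all names were -0.02 and 0.37 there. pcdh2ac gave 142.5 and 163 at 48 hpf (-0.42). At 8 hpf pcdh2ac passed in Cy5 alone, with 166.5 in Cy5 and 41.5 in Cy3, the latter under its limit, and is not counted as measured. The spot's own log2 ratio was 1.08, and without loess 0.72 with centring on measured spots and 0.32 under spike-in scaling. Its size is therefore not settled, and its sign is opposite to that of the value at 48 hpf.

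The last pair of clustered members had weaker or mixed values. The spots of pcdh1g18 disagreed at 48 hpf, at 82 and 138 (-0.64) and at 886 and 502 (0.14), so its median of -0.25 does not describe either spot. pcdh1g1 gave 101.0 in Cy5 and a Cy3 signal at the same percentile as pcdh1g26 (-0.14), where the authors' deposited value was 0.00. With pcdh1gb2 in Cy5 alone at 48 hpf, and pcdh1g9, pcdh2ab1 and pcdh2g12 in neither channel, 4 of the 11 clustered genes remained unmeasured at that age.

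The clustered members thus had a median of -0.42 at 48 hpf (1.34-fold lower), with 9 of their 10 measured spots below 0. The median ran from -0.66 under spike-in scaling to -0.19 with centring on all spots and kept its sign throughout, but single genes did not: with centring on all spots 5 of 7 lay below 0, and with the authors' values or the brightest spot 6 of 7. At 1.5-fold, 2 of 7 were lower, and over all members 3 of 18 (pcdh1gb9, cdh10 and pcdh1g26), against 6.91% of all names. None was 1.5-fold higher, against 5.66%.

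Neuron markers lay lower on the same array. All 13 measured at 48 hpf stood below 0, where 52.2% of all names did, with a median of -0.76. Of the 13, 7 were 1.5-fold lower, against 6.91% of all names. The list was chosen with earlier results of these data known, so its values are a description. With centring on all spots that median was -0.08, beside 0.37 for all names. Their summed signals were 81926 in Cy5 and 76473 in Cy3, against a median raw ratio that favours Cy5. The synaptic gene stxbp1a at -0.92 and the stathmin stmn1b at -0.88 were the lowest of them, and nefma at -0.20 and nefmb at -0.25, of neurofilaments, the highest. At 8 hpf 5 neuron markers were measured, with a median of -0.16, from stmn1b at -0.66 and isl1a at -0.18 to tubb5 at -0.03 and sncb at 0.97. The part of neuronal transcripts in the protocadherin values was not tested.

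**Figure D3:**
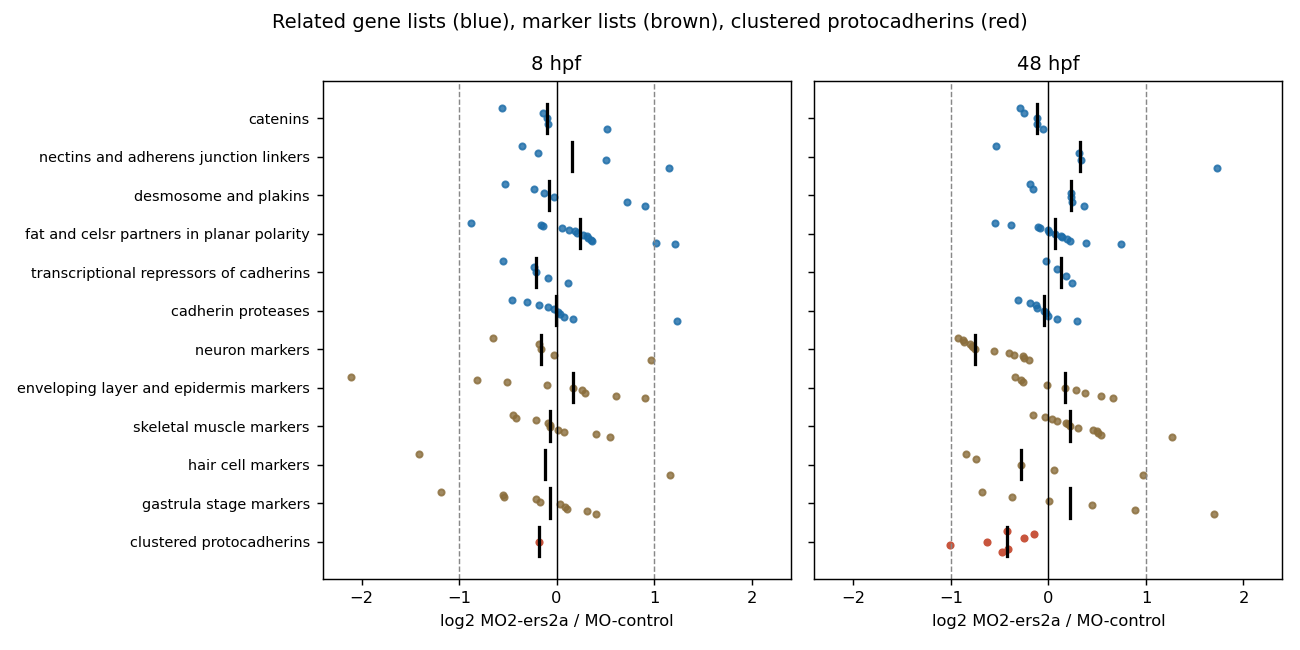
Log2 ratio of MO2-ers2a over MO-control (horizontal axis) for the measured genes of 6 lists related to cadherins (blue), 5 marker lists (brown) and the clustered protocadherins (red), at 8 hpf (left) and 48 hpf (right). Each point is a gene, black bars are list medians and dashed lines mark 2-fold. At 48 hpf the neuron markers, the catenins and the clustered protocadherins lie wholly left of 0.

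The other protocadherins, 9 genes, had 3 measured at 8 hpf and 5 at 48 hpf. pcdh10b, a delta protocadherin, was the highest member at 8 hpf. Its spots gave 4712 in Cy5 and 1520.5 in Cy3 (0.57) and 7855.5 and 2444 (0.60), a gene value of 0.59, with both spots alike. It stayed above 0 under every alternative run, from 0.37 to 1.33. At 48 hpf the same spots gave 894 and 707 (-0.33) and 2664.5 and 1513.5 (0.06), so the gene value of -0.14 joins spots of opposite sign. Its copy pcdh10a was measured at 48 hpf on 1 of 2 spots, with 802 and 577 (-0.19), and passed in Cy5 alone at 8 hpf, with 67 and 57.

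pcdh16l, a name not found in the gene table and so given no role, was the lowest member at 8 hpf. It gave 191.5 in Cy5 and 189.5 in Cy3, a log2 ratio of -0.60 (1.52-fold lower), and the authors' deposited value was -0.90. At 48 hpf it gave 1759 and 1388 (-0.39), so it lay below 0 at both ages. With centring on all spots the value at 48 hpf was 0.15, below the 0.37 of all names. pcdh15a, a protocadherin of hair-cell tip links, gave 217 and 96 on its measured spot at 8 hpf (0.39) and 103 and 86.5 at 48 hpf (0.10), the latter within the spread between spots. Its other spot passed in Cy3 alone at 8 hpf, with 16 in Cy5 and 63 in Cy3 and a ratio of -0.48, and in neither channel at 48 hpf. The value at 8 hpf turned to -0.05 without the filter on dim spots and was -0.18 under spike-in scaling, beside -0.42 for all names. pcdh17, a delta protocadherin of the brain, gave 107.5 and 130 at 48 hpf (-0.36) and was not measured at 8 hpf.

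The remaining 4 were not measured on either array. pcdh8, the paraxial protocadherin of the gastrula mesoderm, passed in Cy5 alone at 8 hpf with 42.5 in Cy5 and 45 in Cy3. pcdh15b, which acts in photoreceptors, pcdh21 (now cdhr1a, a photoreceptor cadherin) and pcdhb passed in neither channel at either age. The hair cell markers beside cdh23 and pcdh15a were also sparse: 2 of 7 on the array were measured at 8 hpf and 5 at 48 hpf. At 48 hpf they ran from ush1c at -0.84 and otofa at -0.74 to s100s at 0.06 and atoh1b at 0.97. The ush1c spot gave 34 in Cy5, close to the limit of 27.7, and otofa was measured on 1 of 2 spots. The 12 protocadherins measured at 48 hpf had a median of -0.38, with 11 below 0, and the 4 at 8 hpf a median of 0.11, with 2 on each side. Centring on all spots put the former at 0.01, beside 0.37 for all names, and spike-in scaling put the latter at -0.35, beside -0.42.

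celsr2, a multi-pass membrane cadherin of planar polarity, gave 139.5 in Cy5 and 79.5 in Cy3 on the first spot at 8 hpf (0.22) and 129 and 93 on the second (-0.03). Its value of 0.09 is within the spread between spots. At 48 hpf both spots passed in Cy5 alone, at 44 and 49, with 44.5 and 54 in Cy3.

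Of the 9 members measured on both arrays, 7 had a lower ratio at 48 than at 8 hpf and 2 a higher one. Of the 13288 names measured on both, 49.0% were lower. The median difference was -0.29 over the members and 0.01 over all names. Under spike-in scaling 4 of 9 members were lower, cdh2 and cdh6 among them by 0.03 and 0.02, while cdh11 at 0.16, cdh17 at 0.22 and pcdh2g20 at 0.22 turned to higher. The members' median was then 0.16, beside 0.32 for all names, of which 24.6% were lower. None was 4-fold apart, against 0.293% of all names in the upward and 0.286% in the downward direction. The largest decrease was that of pcdh10b, at -0.73 (1.65-fold), followed by cdh17 at -0.39 and cdh2 at -0.35. The increases were those of cdh1 at 0.37 and pcdh16l at 0.21. Each age is 1 array, so the difference has no error estimate, and the middle 95% of all names ran from -1.03 to 1.11.

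The control channel gives the levels of these transcripts in MO-control embryos. These were injected too, and no uninjected sample is analysed here. Its Cy3 signals at the 2 ages come from arrays scaled to each other by loess and a common intensity distribution (Aquantile), and no error can be given for the comparison. In MO-control embryos cdh1 was 2.75-fold lower at 48 than at 8 hpf, cdh6 2.51-fold and 2.45-fold lower on its spots, and cdh2 1.35-fold, 1.62-fold and 1.25-fold lower. The folds depend on the scaling between arrays. Before any scaling the Cy3 signals of the cdh2 spots went from 20279 to 10851, from 360 to 281 and from 15992 to 8827. pcdh10b was 2.02-fold and 1.25-fold lower and pcdh15a 1.53-fold lower on its measured spot, so that 3 of the 5 protocadherin spots above background at both ages went down. cdh11 was 3.76-fold higher, and cdh17 6.55-fold and 6.11-fold higher. pcdh16l was 6.19-fold higher and pcdh2g20 27.2-fold higher. Where a spot was not above background at 1 age, the fold is taken against the higher of its own signal and the lowest signal above background. By this measure pcdh1a4 was at least 41.7-fold higher on its brightest spot, but at least 2.19-fold and 1.55-fold on the others. pcdh1gb9 was at least 8.69-fold higher, cdh10 at least 3.99-fold, and pcdh1g18 at least 6.62-fold and 1.76-fold on its spots. pcdh10a was at least 6.62-fold higher on 1 spot, while its other spot was not above background at either age. The bounds were lower for pcdh2ac (2.04-fold), pcdh17 (1.69-fold), pcdh1g1 (1.42-fold) and pcdh1g26 (1.39-fold). celsr2 went the other way, at least 1.52-fold and 1.71-fold lower on its spots. Of the 14 clustered protocadherin spots, 1 was above background in Cy3 at 8 hpf and 10 at 48 hpf. Of the 16 cadherin spots, 9 and 10 were. The share of all spots above background in Cy3 alone was not computed. In both channels together, 44.4% of all spots passed at 8 hpf and 47.9% at 48 hpf.

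**Figure D4:**
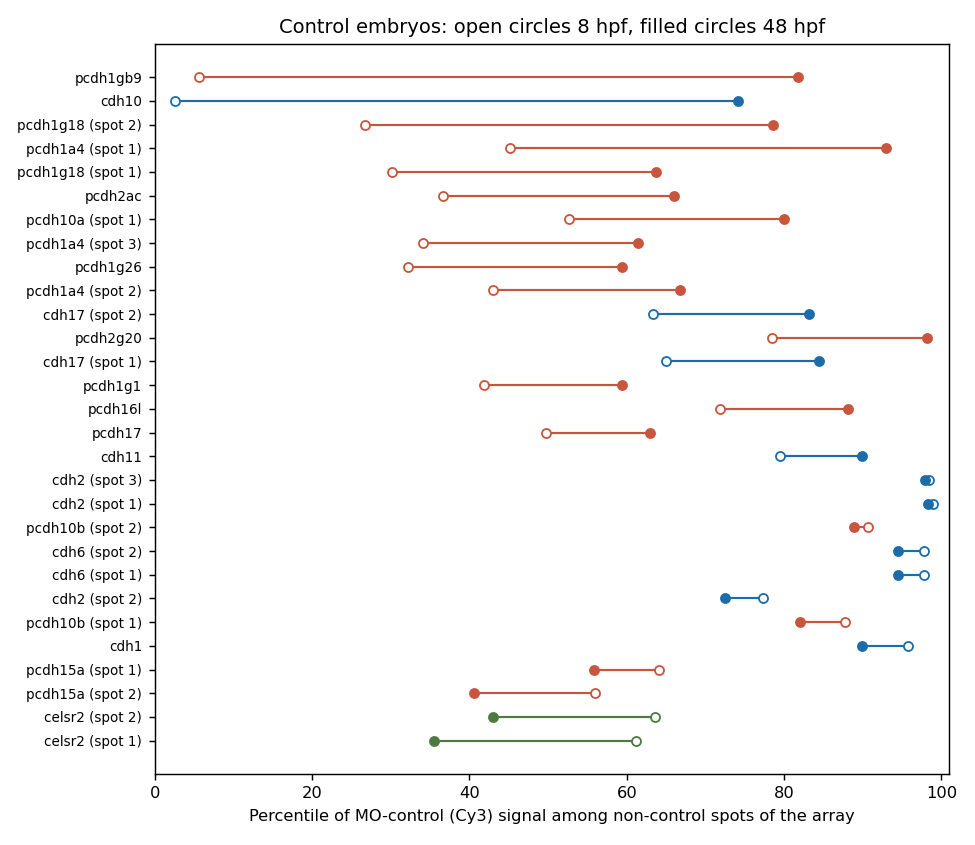
Percentile of the MO-control (Cy3) signal among the 43839 non-control spots of the array (horizontal axis), for each member spot above background at either age; open circles are 8 hpf, filled circles 48 hpf, blue cadherins, red protocadherins, green celsr2. pcdh1gb9 moves from percentile 5.56 to 81.7, and the bright cdh2 spots stay above percentile 97.

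The proteins that work with cadherins were followed in 6 lists, of which 49 of 99 genes were found on the array. At 8 hpf 44 were measured, 4 of them 2-fold higher and none 2-fold lower, with a median of 0.00. At 48 hpf 41 were measured, 1 of them 2-fold higher and none lower, with a median of 0.00. The background is the one given above, 2.32% and 1.29% higher.

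Catenins, which tie cadherins to actin, had 5 of 5 genes measured at both ages. beta-catenin ctnnb1 stood at 0.52 at 8 hpf, on 3 spots from 0.24 to 0.63, and its copy ctnnb2 at -0.56, with ctnna1 (alpha-catenin) at -0.14, jupa (plakoglobin) at -0.10 and ctnna2 at -0.08. At 48 hpf all 5 lay between -0.29 (ctnna1) and -0.05 (jupa), with ctnnb2 at -0.25, ctnnb1 at -0.11 and a list median of -0.12, which was 0.46 with centring on all spots, beside 0.37 for all names. None was 2-fold.

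Among the nectins and adherens junction linkers, nectin3b, an adhesion receptor that works beside cadherins, was 2-fold higher at both ages. Its spot gave 825 against 180 at 8 hpf (1.15) and 1571 and 271 at 48 hpf (1.73, or 3.32-fold). The polarity protein gene pard3ab followed at 0.50 and 0.34. vcla (vinculin) was the lowest at both ages, at -0.35 and -0.53, and pdlim1 stood at -0.19 and 0.32. vcla was dim and was measured on 1 of 3 spots at 8 hpf and on 2 of 3 at 48 hpf. The medians over its spots were 32.5 in Cy5 and 54 in Cy3, and 70 and 139. Under spike-in scaling nectin3b was 0.77 at 8 hpf, no longer 2-fold, and 1.73 at 48 hpf. It rests on 1 spot, and both arrays have the same dye orientation, so a dye bias of the probe would appear at both ages.

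Desmosome and plakin genes, 6 measured at each age, had none at 2-fold. The highest at 8 hpf were pkp2 at 0.91 and ppl at 0.72, and the lowest pkp3a at -0.53 and evpla at -0.23. The pkp2 value rests on 1 spot with 228.5 in Cy5 and 64 in Cy3, the latter just above the limit of 59.9. At 48 hpf ppl at 0.36 and evpla at 0.24 were the highest and perp at -0.19 and pkp2 at -0.16 the lowest. The list's median was -0.07 at 8 hpf and 0.23 at 48 hpf.

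Partners of fat and celsr proteins in planar polarity had 14 genes measured at 8 hpf and a median of 0.24, with 11 above 0. Under spike-in scaling the median was -0.17, beside -0.42 for all names. wnt5b, a ligand that guides cell movement in gastrulation, was 2-fold higher at 1.22. prickle1a stood at 1.02, but its spots gave -0.40 and 2.45. The lowest were fzd3b, a Frizzled receptor, at -0.87 and dvl2, a Dishevelled, at -0.16. At 48 hpf none of 13 was 2-fold: the cilium gene invs at 0.75 and fzd7a at 0.39 were the highest, fzd3b at -0.55 and fzd6 at -0.38 the lowest, and the median was 0.06.

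Transcriptional repressors of cadherin genes had none at 2-fold among 5 measured at 8 hpf and 4 at 48 hpf. At 8 hpf snai1a stood at 0.12 and snai1b at -0.09, with twist2 at -0.55 and snai2 at -0.23 the lowest. At 48 hpf snai1a at 0.24 and twist2 at 0.18 were the highest, and zeb1b at -0.03 and snai2 at 0.09 the lowest. Of the proteases that cut cadherins or their fragments, 10 were measured at 8 hpf. ncstn (nicastrin), a gamma-secretase subunit, was 2-fold higher at 1.24 on 1 spot that was dim in Cy3 (425.5 and 86) and was not measured at 48 hpf. aph1b, another subunit, stood at 0.17, and mmp14a at -0.45 and adam17a at -0.30 were the lowest. At 48 hpf none of 9 was 2-fold, with aph1b at 0.29 and psenen at 0.08 the highest and adam9 at -0.31 and adam10b at -0.19 the lowest.

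The other marker lists give the setting of these values. Skeletal muscle markers had a median of -0.07 at 8 hpf over 10 genes, from actc1b at -0.45 and tnnt3a at -0.41 to tnni2a.4 at 0.41 and myod1 at 0.55. At 48 hpf their median was 0.23 over 13 genes, from tnni2a.4 at -0.16 and ckma at -0.03 to acta1a at 0.54 and desma (desmin), 2-fold higher at 1.27, with summed signals of 567126 in Cy5 and 245046 in Cy3. Gastrula genes had a median of -0.06 at 8 hpf, from ndr1, 2-fold lower at -1.19, and mixl1 at -0.55 to chd at 0.31 and gsc at 0.41. At 48 hpf their median was 0.22, from gsc at -0.68 and vent at -0.37 to chd at 0.89 and vox, 2-fold higher at 1.70. In the epidermal list icn was 2-fold lower at 8 hpf, at -2.11, followed by krt17 at -0.81, with tp63 at 0.91 and cldni at 0.61 the highest. At 48 hpf krt5 at -0.34 and tp63 at -0.28 were the lowest and krt18a.1 at 0.66 and icn at 0.54 the highest. The hair cell markers at 8 hpf were s100s, 2-fold higher at 1.17, and s100t, 2-fold lower at -1.41.

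**Figure D5:**
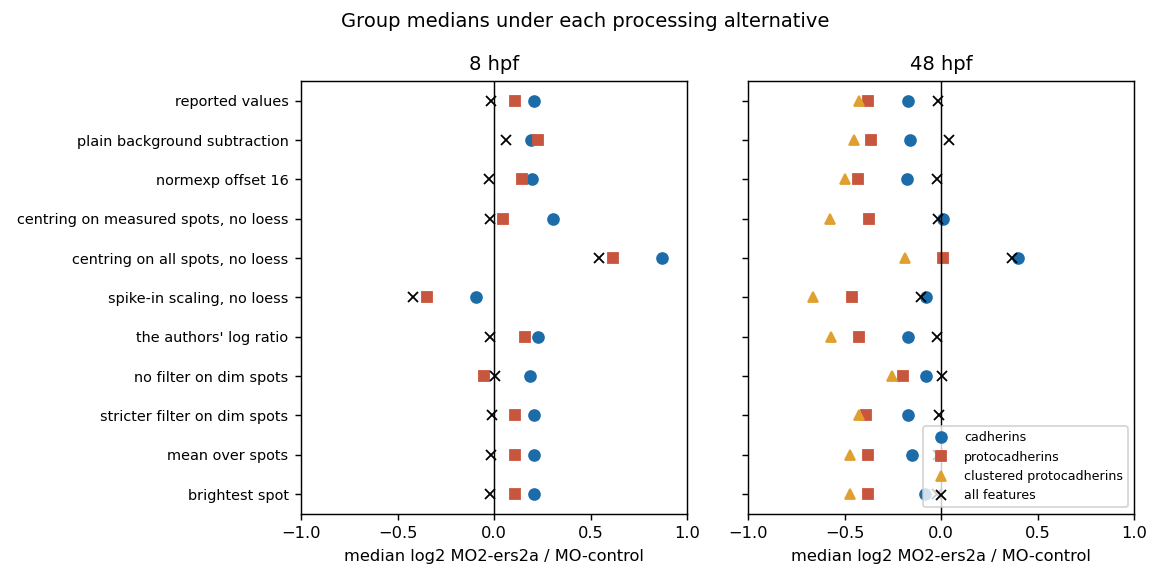
Median log2 ratio (horizontal axis) of the cadherins, the protocadherins, the clustered protocadherins (48 hpf) and all names, under the reported processing and 10 alternatives, at 8 hpf (left) and 48 hpf (right). The clustered protocadherins stay left of both 0 and the median of all names at 48 hpf in each setting, from -0.66 to -0.19, while the cadherin medians cross 0 with the scaling.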

How the data were processed

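Per the file headers, both arrays were deposited as spot intensity, with a median signal and a median background in each channel. The authors' series matrix holds a log10 ratio for each spot. The submitters' processing notes name Agilent Feature Extraction, and no source used here gives its version or its dye correction. On bright spots the deposited log10 values tracked the raw log2 ratio of Cy5 over Cy3 (slopes 0.289 and 0.297, r 0.982 and 0.990), which gives their direction. Both columns have a median of 0, and how they were centred is unknown. Exact zeros (35.9% and 34.0% of spots) were left out.

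Background was corrected by normexp with an offset of 50 (limma 3.58.1, R 4.3.3, Python 3.11.15), followed by loess within the array with control spots at weight 0, a step tested on simulated data, in which most spots made 2-fold different came out under 2-fold. The offset compresses the ratios of dim spots. The detection limit was 2.6 SD above the mean of 153 negative controls in each channel. Files pair spots with gene names and not with sequences, so spots of 1 name may be repeats or different probes. The scaling alternatives (centring on measured or on all spots, spike-in) replace loess by 1 constant per array. Spike-in scaling used the mean of the probe medians of the E1A spots. The designed ratios of these spots are not given in the labels. The scaling assumes that they average to no difference between the channels, which could not be checked. A RefSeq gene table gave current symbols for 28 of 31 members.

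Members and lists were chosen with earlier results of these data known. Full values are given for 2-fold members, the 3 highest and 3 lowest of each class per array, and the largest differences between arrays. Of each list the 2-fold genes and the 2 highest and 2 lowest are named. The number of arrays, 1 per age, limits the precision. Alternatives changed the background correction, scaling, filter, summary over spots, fold and choice of rows.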

Additional observations from a re-analysis of the deposited data

Results flagged for a closer look

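On both arrays cdh2, cdh17, cdh6 and pcdh10b had several measured spots. In the reported processing all spots of cdh2 and cdh17 lay above 0 at 8 hpf and below 0 at 48 hpf in MO2-ers2a over MO-control. The spots of cdh6 disagreed in sign at 8 hpf (-0.23 and 0.08), and those of pcdh10b at 48 hpf (-0.33 and 0.06). The gene values of cdh17 at both ages and of cdh2 at 8 hpf lay within the spread between spots. The lowest cdh2 spot at 8 hpf was at 0.01. With centring on all spots the values at 48 hpf were 0.37 for cdh2 and 0.42 for cdh17, beside 0.37 for all names. Under spike-in scaling the values at 8 hpf were -0.07 and -0.28, beside -0.42. The difference of the gene values, 48 minus 8 hpf, was -0.35 for cdh2 and -0.39 for cdh17 on the log2 scale. The difference was not tested, since each age is 1 array. It stayed below 0 for cdh2 under every alternative run (-0.52 to -0.03, the last under spike-in scaling), and for cdh17 it turned to 0.22 under spike-in scaling, where the median over all names was 0.32.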

How the results depend on the processing

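No paired analysis was possible because each age has 1 array and the ages share fewer than 2 replicate numbers. For the same reason no array was left out.

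Of the recomputed medians and counts, 158 held and 34 moved. Finding members by name without regard to letter case gave the same member counts as the reported processing at both ages. Results under such alternatives are among the 158, so that number does not measure how firm the results are. A median held if it stayed within the spread between spots of its reported value, even with a change of sign. The cadherin median at 8 hpf, 0.20, thus held at -0.09 under spike-in scaling. A count held if it was equal or within 1.5-fold, whichever genes made it up. With centring on measured spots the member 2-fold lower at 48 hpf was pcdh1g26 (-1.004), while pcdh1gb9 stood at -0.943. Members 2-fold higher at 8 hpf went from 0 to 2 with centring on all spots (cdh1 and pcdh10b), to 1 without a filter on dim spots (pcdh2ac), to 1 with rows found by current symbol (fat3a, an alternative chosen after seeing the data) and to 1 at 1.5-fold (pcdh10b). Members 2-fold lower at 8 hpf went from 0 to 1 under spike-in scaling and at 1.5-fold (pcdh16l in both). At 48 hpf, centring on all spots gave 1 higher (cdh1) and 0 lower, against 0 and 1; members lower became 2 under spike-in scaling, 2 with the authors' log ratio and 3 at 1.5-fold.

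With centring on all spots the medians at 8 hpf were 0.87 for cadherins, 0.61 for protocadherins and 0.44 for clustered protocadherins, and at 48 hpf 0.40, 0.011 and -0.19. Spike-in scaling gave -0.35 for protocadherins, -0.57 for celsr2 and -0.52 for clustered protocadherins at 8 hpf, and -0.66 for the last at 48 hpf. Both settings also leave out loess, so single spots moved by unequal amounts; the medians of all names were 0.54 and 0.37 with centring on all spots and -0.42 and -0.11 under spike-in scaling. The cause of each member's move was not tested.

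Genes of the 6 related lists 2-fold higher at 8 hpf went from 4 to 9 with centring on all spots and to 0 under spike-in scaling. Those 2-fold lower went from 0 to 1 under plain background subtraction, normexp with offset 16, centring on measured spots and at 1.5-fold, to 2 with the authors' log ratio and to 4 under spike-in scaling. At 48 hpf those higher went from 1 to 3 with centring on all spots and to 2 with the authors' log ratio and at 1.5-fold, and those lower from 0 to 1 under spike-in scaling and with the authors' log ratio. Over all names, the 2-fold shares, 2.32% higher and 2.27% lower at 8 hpf and 1.29% and 1.28% at 48 hpf, became 4.62% and 6.74%, and 2.97% and 4.76%, with the authors' log ratio, and 1.18% and 0.956%, and 0.744% and 0.611%, without a filter. Signals near background limit the clustered protocadherins: several lie within a few times the detection limits.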

Other observations

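A pair of genes of the fat family sit on the array under older names and are outside the counts above. fat3a, under a clone name, gave 1085.5 in Cy5 and 68 in Cy3 at 8 hpf, a log2 ratio of 2.63 (6.21-fold higher), and 12 and 35.5 at 48 hpf, where it was not measured. Its Cy3 signal at 8 hpf stood just above the limit of 59.9. fat1a, named fat on the array, had 1 of 2 spots measured at each age, with 362 and 247 at 8 hpf (-0.27) and 418 and 257.5 at 48 hpf (0.12). Fat proteins are giant cadherins. The fat3a value rests on 1 spot of 1 array, and the authors' deposited log ratio for it, on the log2 scale, was 3.82.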
